A study of Mus musculus with 12 samples.

Results

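Epithelial antimicrobial peptides and proteins were followed in periocular skin, the skin around the eye, as 10 genes of the count table: the beta-defensins *Defb1*, *Defb3*, *Defb4*, *Defb6* and *Defb14*, the cathelicidin *Camp*, the lectin *Reg3g*, lipocalin 2 (*Lcn2*), and the protease inhibitors *Slpi* and *Wfdc12*. They were taken as the rows with these symbols, which gave 10 of 21247 genes. RNA-seq had been run on 4 samples labelled ft/ft and on 4 labelled ft/ftMyD88-/-, all from 6-week-old BALB/c mice. Both groups carried the homozygous loss-of-function mutation in filaggrin (ft/ft), a protein of the outer epidermis, with the *ma* mutation of the original flaky tail strain removed. The mice labelled ft/ftMyD88-/- came from an in-house cross and lacked in addition MyD88, the adaptor that carries signals from toll-like and IL-1 family receptors, with no Cre driver named. The study set the groups side by side to ask what MyD88 deficiency adds to filaggrin deficiency, within the limits of the sample checks below. Neither the 4 WT samples of the series nor MyD88-/- mice with intact filaggrin were analysed here.

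Antimicrobial peptides and proteins are made by keratinocytes and other epithelial cells and act on microbes at the surface. Beta-defensins and cathelicidin are small cationic peptides that disturb bacterial membranes, REG3G binds peptidoglycan of Gram-positive bacteria, lipocalin 2 captures bacterial siderophores and so withholds iron, and SLPI and WFDC12 are small proteins with whey acidic protein domains that inhibit proteases or bacteria. Some of these genes are transcribed steadily in resting epidermis, while others are switched on by microbial products and by cytokines such as IL-17, IL-22 and IL-1. Neutrophils also store several of these proteins, among them cathelicidin and lipocalin 2.

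Total counts ranged from 15802957 to 29255129 per library, and 20454 genes reached the minimum of 10 counts over all 8 libraries and were tested. Counts of *Myd88* were not lower in the libraries labelled ft/ftMyD88-/- (41.2 ± 7.29 CPM, counts scaled to a common library size, SD, n = 4) than in those labelled ft/ft (30.7 ± 4.74 CPM, SD, n = 4). *Myd88* was called higher (edgeR's quasi-likelihood test, log2 fold change 0.42, adjusted p = 0.0484), but in only 2 of 8 fits that left out a library. Counts summed over a whole gene do not show whether a part of it was deleted, so genotypes are given below as labelled. *Xist*, transcribed from the inactive X chromosome, lay at 34.6 to 66.8 CPM in the libraries labelled ft/ftMyD88-/- and at 0 to 0.0429 CPM in those labelled ft/ft, whereas the Y-linked *Ddx3y* lay at 0 to 0.482 CPM and 54.2 to 73.2 CPM. The paper gives all mice as female, which the levels of both genes in the ft/ft-labelled libraries contradict. Those libraries show a male pattern, and those labelled ft/ftMyD88-/- a female one. Every difference between the groups below is thus also one between these patterns, and genotype cannot be told apart from sex here. In bulk skin, fewer cells of a type and less RNA per cell cannot be told apart either. The epidermal keratins and loricrin were abundant in every library, with 32378 to 40235 CPM summed over 11 basal and differentiated keratinocyte markers in the ft/ft-labelled libraries and 21377 to 25181 CPM in those labelled ft/ftMyD88-/-.

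*Reg3g*, *Lcn2* and *Wfdc12* were higher in the libraries labelled ft/ftMyD88-/-, with mean CPM 85.0, 3.82 and 8.14 times those of the ft/ft-labelled libraries. None of the 10 genes was called lower, and none was lower at an unadjusted p under 0.05 by edgeR or at an adjusted p under 0.05 by DESeq2 or limma voom. Thus 3 of 10 were called higher (edgeR's quasi-likelihood test, Benjamini-Hochberg adjusted p under 0.05 over all genes tested), beside 10.9% of all genes tested that were called higher and 12.3% that were called lower. With scaling by library size only, 5 of the 10 and 4638 of all genes were called higher, and 1326 of all genes lower. The other 7 did not pass the test, which included *Defb3*, with the second highest fold change of the 10. The median log2 fold change was 0.88 over the 10 genes and 0.01 over all genes tested. All 4 libraries labelled ft/ftMyD88-/- lay above all 4 labelled ft/ft for 5 of the 10 genes (*Defb3*, *Defb14*, *Reg3g*, *Lcn2* and *Wfdc12*), against 12.5% of all genes tested, and the reverse held for none of the 10, against 14.2%. Summed over the 10 genes, the level was 175 to 232 CPM in the ft/ft-labelled libraries and 321 to 421 CPM in those labelled ft/ftMyD88-/-.

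**Figure D1:**
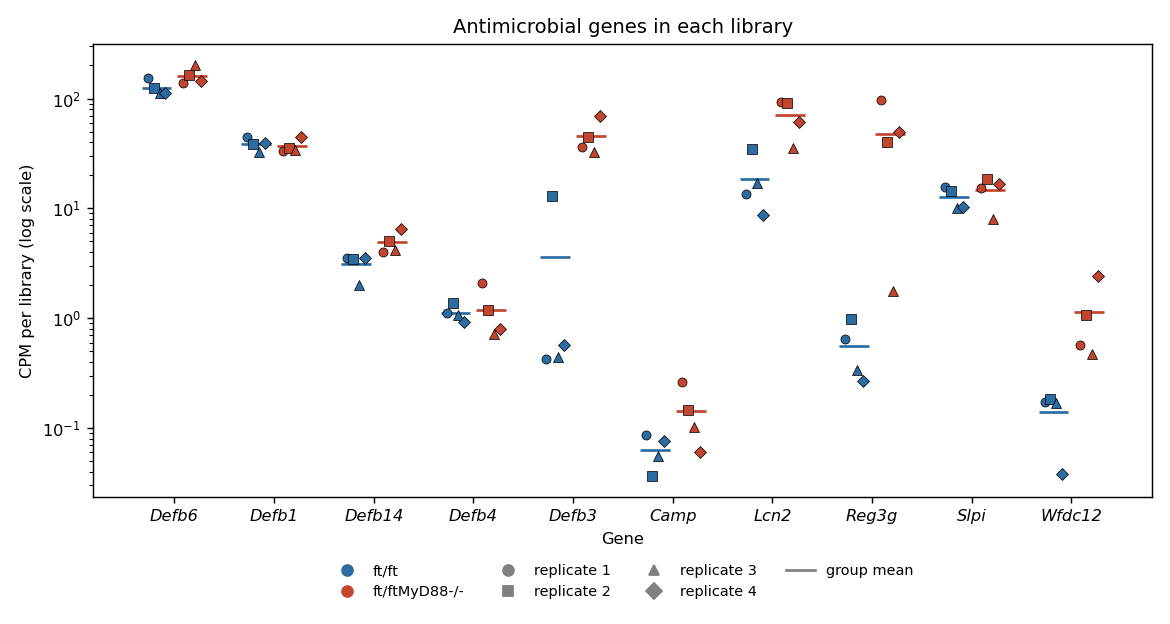
CPM of the 10 genes in each library on a log scale, with one symbol per replicate, blue for ft/ft and red for ft/ftMyD88-/-, and a bar at each group mean. For Defb3, Defb14, Reg3g, Lcn2 and Wfdc12 the groups do not overlap, and for Defb3 the square of ft/ft replicate 2, at 13.0 CPM, stands apart from the other 3 at 0.429 to 0.575 CPM.

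Mean shares of the 10 genes in their summed CPM differed between the groups, though not in every library. The shares were not divided by gene length and were not tested. *Defb6* accounted for 54.1% to 65.7% of their summed CPM in the ft/ft-labelled libraries and for 32.7% to 63.5% in those labelled ft/ftMyD88-/-. *Defb1* held a mean share of 19.1% and 9.62%, with no call on its own level. *Reg3g* made up at most 0.423% in the ft/ft-labelled libraries and 0.551% to 23.2% in those labelled ft/ftMyD88-/-. The lowest *Reg3g* share and the highest *Defb6* share of the latter group were both in replicate 3, whose *Defb6* share lay inside the range of the ft/ft-labelled libraries. *Lcn2* accounted for a mean of 8.81% and 17.9%, and *Defb3* for 1.59% and 11.9%.

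Per kb of exonic length, *Defb6* was the most abundant of the 10 in both groups, at 390 ± 57.8 CPM per kb in the ft/ft-labelled libraries and 501 ± 92.5 CPM per kb in those labelled ft/ftMyD88-/- (SD, n = 4). In the ft/ft-labelled libraries, *Defb1* came next at 44.3 ± 5.55 CPM per kb. *Defb14* (15.4 ± 3.72), *Defb3* (13.1 ± 22.7), *Slpi* (10.7 ± 2.40) and *Lcn2* (7.03 ± 4.35 CPM per kb) followed, and then came *Defb4* at 2.47 ± 0.426 CPM per kb. From *Defb14* to *Defb4*, each gene's range of mean ± SD overlapped that of the next in this order. *Reg3g* (0.263 ± 0.155), *Wfdc12* (0.180 ± 0.0876) and *Camp* (0.0840 ± 0.0291 CPM per kb) were lowest, and each overlapped the next in the same sense. In the libraries labelled ft/ftMyD88-/-, *Defb3* took the second place at 167 ± 60.6 CPM per kb, above *Defb1* at 42.0 ± 6.05 CPM per kb. *Lcn2* (26.9 ± 10.6), *Defb14* (24.1 ± 5.56), *Reg3g* (22.4 ± 18.7) and *Slpi* (12.3 ± 3.83 CPM per kb) followed, and *Defb4* (2.64 ± 1.40), *Wfdc12* (1.47 ± 1.17) and *Camp* (0.189 ± 0.115 CPM per kb) closed the order. Here neighbours overlapped from *Defb1* to *Slpi* and from *Defb4* to *Camp*, but not between *Slpi* and *Defb4*. The annotated exonic length joins all transcripts of a gene, and over the longest coding transcript alone *Reg3g* and *Lcn2* in the libraries labelled ft/ftMyD88-/- came to 61.4 ± 51.3 and 77.0 ± 30.3 CPM per kb, each with a mean above that of *Defb1*. In the ft/ft-labelled libraries they came to 0.722 ± 0.424 and 20.1 ± 12.5 CPM per kb, which puts the mean of *Lcn2* next after *Defb1*. Levels per kb presume that counts rise with transcript length, and the labels and methods differ on the library protocol. In CPM without division by length, the means of *Lcn2* (70.5) and *Reg3g* (47.3) were above that of *Defb3* (46.0) in the libraries labelled ft/ftMyD88-/-.

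The 5 beta-defensins lie on chromosome 8 of GRCm38 on the plus strand. *Defb14* (chr8:19160244-19195309), *Defb4* (chr8:19198704-19201547), *Defb6* (chr8:19225478-19228209) and *Defb3* (chr8:19293361-19295339) are neighbours, and *Defb1* (chr8:21776555-21795185) lies apart from them. *Defb3* and *Defb6* are shown first because they are neighbours of similar sequence whose log2 fold changes were far apart. The 250 bases before their transcription starts were 74.0% identical in a global alignment (196 of 265 columns), whereas the other pairs of the 7 genes with a promoter in the RefSeq table were 45.9% to 52.9% identical. Both are given 5′ to 3′ on the plus strand (RefSeq, GRCm38.p6), *Defb3* as chr8:19293111-19293360 and *Defb6* as chr8:19225228-19225477. Capitals mark matches on either strand to an NF-kB-like motif (GGG and CC with any 5 bases between them) and in *Defb6* also 1 match to TTNCNNNAA, a loose form of the C/EBP site.
Defb3: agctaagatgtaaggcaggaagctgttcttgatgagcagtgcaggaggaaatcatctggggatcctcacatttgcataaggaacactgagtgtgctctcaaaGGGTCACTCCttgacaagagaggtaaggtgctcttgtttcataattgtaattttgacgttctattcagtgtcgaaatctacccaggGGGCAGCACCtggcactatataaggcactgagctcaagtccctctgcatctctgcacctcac
Defb6: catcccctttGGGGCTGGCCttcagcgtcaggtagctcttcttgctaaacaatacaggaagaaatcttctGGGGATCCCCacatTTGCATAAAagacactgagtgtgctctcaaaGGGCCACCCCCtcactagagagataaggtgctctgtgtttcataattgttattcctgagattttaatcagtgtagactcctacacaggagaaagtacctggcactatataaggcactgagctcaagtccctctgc

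*Defb3* held 2 matches to the NF-kB-like motif and *Defb6* held 4, of which 2 overlap by all but 1 base. This motif was found in 5 of the 7 promoters searched (*Defb3*, *Defb6*, *Reg3g*, *Lcn2* and *Wfdc12*) and in 45.8% of 32851 promoter windows of the same length. The C/EBP-like letters were found in 2 of the 7 (*Defb6* and *Slpi*) and in 32.9% of all windows. Neither TTCNNNGAA, a STAT-like motif, nor TGANTCA, an AP-1-like motif, was found in any of the 7, and they were present in 7.02% and 6.75% of all windows.

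*Defb3*, an inducible beta-defensin, had 10, 357, 8 and 15 counts in libraries 1 to 4 labelled ft/ft, which is 0.429, 13.0, 0.446 and 0.575 CPM. In those labelled ft/ftMyD88-/- it had 833, 1227, 958 and 1143 counts, or 36.5, 45.1, 32.6 and 69.7 CPM. The groups did not overlap, and ft/ft replicate 2 was 29.1 times the median of the other 3 libraries of its group. The means were 3.61 ± 6.25 and 46.0 ± 16.7 CPM (SD, n = 4). The log2 fold change was 3.61 ± 1.16 (SE, 95% interval 0.80 to 6.42) and did not pass the test (edgeR, adjusted p = 0.0715). It passed without ft/ft replicate 2, with a log2 fold change of 6.54 and an adjusted p of 4.48e-05 (edgeR), and also with DESeq2 (adjusted p = 0.00810) and limma voom (adjusted p = 0.0132).

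*Defb6*, a beta-defensin known from skeletal muscle and epithelia, was at 152, 126, 112 and 113 CPM in the ft/ft-labelled libraries and at 138, 162, 204 and 143 CPM in those labelled ft/ftMyD88-/-. The groups overlapped, and the highest library, ft/ftMyD88-/- replicate 3, was the lowest of its group for *Defb3*. The log2 fold change was 0.36 ± 0.136 (SE, 95% interval 0.07 to 0.66) with an adjusted p of 0.0727 (edgeR), so the call was not made, while DESeq2 made it (adjusted p = 0.0391). It was also made with scaling by library size only (adjusted p = 0.0130, edgeR) and without replicate 1 of either group (adjusted p = 0.0309 for ft/ft and 0.0383 for ft/ftMyD88-/-, edgeR). Skeletal muscle markers moved the other way, at 8235 to 11232 CPM summed over 9 genes in the ft/ft-labelled libraries and 3175 to 6131 CPM in those labelled ft/ftMyD88-/-, with 8 of the 9 called lower. Their part in the *Defb6* value was not tested. Within each library, the ratio of *Defb3* to *Defb6* removes library size and scaling from the comparison. Its log2 was -8.47 to -3.28 in the ft/ft-labelled libraries and -2.65 to -1.04 in those labelled ft/ftMyD88-/-, a difference of 4.97. The pair was chosen after its values were seen, so the ratio is a description with no test. Their annotated transcripts were 61.9% identical and shared no run of 50 bases, the read length, with any other gene.

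*Defb14*, the mouse counterpart of human beta-defensin 3, was at 3.56, 3.49, 2.01 and 3.53 CPM in the ft/ft-labelled libraries. In those labelled ft/ftMyD88-/- it was at 3.99, 5.03, 4.15 and 6.46 CPM. All of the latter were above all of the former (exact two-sided permutation p = 0.0286, the smallest possible). The log2 fold change was 0.62 ± 0.220 (SE, 95% interval 0.15 to 1.10) and did not pass the test (edgeR, adjusted p = 0.0586). Without ft/ft replicate 3, the low library, it was 0.47 with an adjusted p of 0.128 (edgeR). It passed without replicate 1 or replicate 3 labelled ft/ftMyD88-/-, with adjusted p-values of 0.0452 and 0.0487 (edgeR), and with DESeq2 (adjusted p = 0.0238).

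*Defb1*, a beta-defensin that epithelia make without stimulation, was at 44.3, 38.4, 32.5 and 39.4 CPM in the ft/ft-labelled libraries and at 33.0, 35.2, 34.0 and 44.5 CPM in those labelled ft/ftMyD88-/-. The groups overlapped almost entirely. Its log2 fold change was -0.08 ± 0.119 (SE), with a 95% interval of -0.34 to 0.18 (edgeR, adjusted p = 0.673), and it was 0.10 when counts were scaled by library size only. *Defb4*, an inducible beta-defensin related to human beta-defensin 2, had 19 to 38 counts per library labelled ft/ft and 13 to 48 per library labelled ft/ftMyD88-/-. The means were 1.12 ± 0.193 and 1.20 ± 0.637 CPM (SD, n = 4), and the libraries labelled ft/ftMyD88-/- were the more spread. Its log2 fold change of 0.09 ± 0.338 (SE, 95% interval -0.64 to 0.83) did not pass the test (edgeR, adjusted p = 0.871) and was -0.31 without ft/ftMyD88-/- replicate 1. Of its 50-base runs, 5.68% are shared with *Defb8*, so a part of its reads may have been left uncounted or assigned to either gene.

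*Camp*, the cathelicidin gene, is encoded on chromosome 9 (chr9:109847377-109849456, minus strand). It was close to undetected, with 2, 1, 1 and 2 counts in the ft/ft-labelled libraries and 6, 4, 3 and 1 in those labelled ft/ftMyD88-/-. A count of 0 would allow up to 3 counts, which is 0.102 to 0.183 CPM in these libraries. Pooled over each group, 14 against 6 counts gave a ratio of 2.31 with an exact 95% interval of 0.834 to 7.33, which covers counting error only.

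*Reg3g*, on chromosome 6 (chr6:78466269-78468874, minus strand), had the highest fold change of the 10. It had 15, 27, 6 and 7 counts in the ft/ft-labelled libraries, or 0.643, 0.982, 0.335 and 0.268 CPM. The libraries labelled ft/ftMyD88-/- had 2233, 1091, 52 and 813 counts, or 97.9, 40.1, 1.77 and 49.6 CPM. The groups did not overlap, but ft/ftMyD88-/- replicate 3 was at 0.0357 times the median of the other 3 libraries of its group. The means were 0.557 ± 0.327 and 47.3 ± 39.5 CPM (SD, n = 4), and the log2 fold change was 6.35 ± 1.33 (SE, 95% interval 3.13 to 9.57, edgeR, adjusted p = 0.0184). Leaving out 1 library at a time kept the log2 fold change between 5.72 and 6.81. The call held in 5 of these 8 fits and was lost without ft/ft replicate 1, 3 or 4, at adjusted p-values of 0.0513, 0.0556 and 0.0593 (edgeR). It was lost as well with limma voom (log2 fold change 5.41, adjusted p = 0.310), and without ft/ftMyD88-/- replicate 3 the adjusted p was 0.000375 (edgeR).

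The promoter of *Reg3g* is shown because the gene had the highest fold change of the 10, as the 250 bases before the start (RefSeq, GRCm38.p6, chr6:78468875-78469124, minus strand, 5′ to 3′). Capitals mark its 1 match to the NF-kB-like motif, from 123 to 114 bases before the start.
Reg3g: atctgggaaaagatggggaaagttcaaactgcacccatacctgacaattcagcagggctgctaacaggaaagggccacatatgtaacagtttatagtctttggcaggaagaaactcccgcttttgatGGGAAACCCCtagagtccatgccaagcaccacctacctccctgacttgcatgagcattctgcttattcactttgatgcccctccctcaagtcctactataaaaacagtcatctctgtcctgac

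*Lcn2*, on chromosome 2 (chr2:32384637-32387739, minus strand), was at 13.4, 34.8, 16.9 and 8.63 CPM in the ft/ft-labelled libraries. In those labelled ft/ftMyD88-/- it was at 93.9, 91.3, 35.2 and 61.4 CPM. The groups met without overlap, since ft/ft replicate 2 at 34.8 CPM lay just under ft/ftMyD88-/- replicate 3 at 35.2 CPM. The log2 fold change was 1.93 ± 0.527 (SE, 95% interval 0.66 to 3.20, edgeR, adjusted p = 0.0431). The call held in only 2 of the 8 fits that left out a library, those without ft/ft replicate 2 (adjusted p = 0.0143, edgeR) and without ft/ftMyD88-/- replicate 3 (adjusted p = 0.0315, edgeR). In the other 6 fits, without any of the remaining libraries in turn, the adjusted p was 0.0795 to 0.103 and the log2 fold change 1.69 to 2.00 (edgeR). DESeq2 gave an adjusted p of 0.00164 and limma voom one of 0.0361.

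The promoter of *Lcn2* is shown as that of another gene called higher (RefSeq, GRCm38.p6, chr2:32387740-32387989, minus strand, 5′ to 3′), with its 1 match to the NF-kB-like motif, from 102 to 93 bases before the start, in capitals.
Lcn2: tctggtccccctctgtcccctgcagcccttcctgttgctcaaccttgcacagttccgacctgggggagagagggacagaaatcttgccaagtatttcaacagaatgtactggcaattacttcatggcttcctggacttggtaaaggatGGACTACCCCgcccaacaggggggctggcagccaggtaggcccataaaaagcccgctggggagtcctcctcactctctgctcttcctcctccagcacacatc

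*Slpi* and *Wfdc12* both encode whey acidic protein domains and both lie on chromosome 2 (chr2:164354070-164356507 and chr2:164189231-164190558, minus strand). *Slpi*, the secretory leukocyte protease inhibitor, was at 15.6, 14.4, 10.0 and 10.4 CPM in the ft/ft-labelled libraries and at 15.3, 18.3, 8.03 and 16.5 CPM in those labelled ft/ftMyD88-/-. The groups overlapped, with ft/ftMyD88-/- replicate 3 the lowest of all 8. Its log2 fold change was 0.20 ± 0.246 (SE, 95% interval -0.34 to 0.75, edgeR, adjusted p = 0.598). *Wfdc12* had 4, 5, 3 and 1 counts in the ft/ft-labelled libraries and 13, 29, 14 and 40 counts in those labelled ft/ftMyD88-/-. The CPM were 0.171, 0.182, 0.167 and 0.0383 against 0.570, 1.07, 0.476 and 2.44, so the groups did not overlap although the gene was barely detected in the ft/ft-labelled libraries. The log2 fold change was 2.94 ± 0.626 (SE, 95% interval 1.57 to 4.30, edgeR, adjusted p = 0.00602), and the call held in all 15 alternatives fitted, with adjusted p-values up to 0.0214 by any of the tools used (edgeR, DESeq2 and limma voom). Of its 50-base runs, 10.9% are shared with transcripts of *A730032A03Rik*, so reads there cannot be assigned with certainty.

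**Figure D2:**
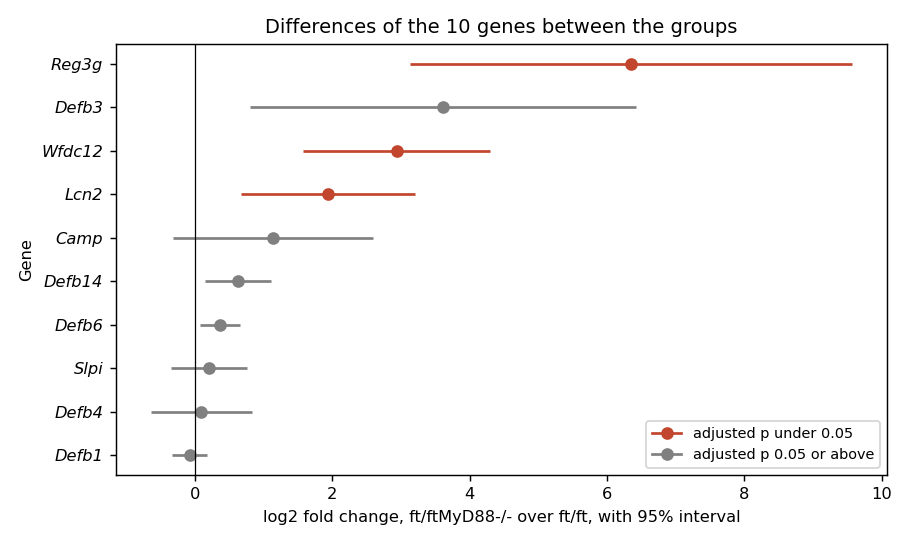
Log2 fold change of each gene, ft/ftMyD88-/- over ft/ft, with its 95% interval from the edgeR fit, in red where the adjusted p was under 0.05. Reg3g, Wfdc12 and Lcn2 are red, Defb3 has an interval of 0.80 to 6.42 but is grey, and the intervals of Defb1, Defb4, Slpi and Camp include 0.

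**Figure D3:**
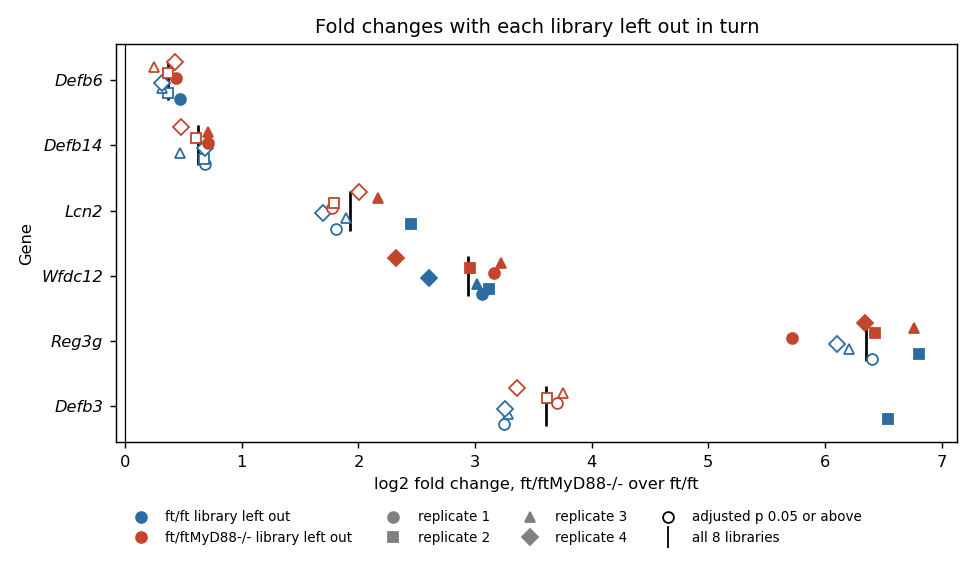
Log2 fold change of 6 genes when each of the 8 libraries was left out in turn, with colour for the group and shape for the replicate left out, open symbols for an adjusted p of 0.05 or above, and a black line for the fit of all 8 libraries. All symbols of Wfdc12 are filled, and only the fit without ft/ft replicate 2 gives a filled symbol for Defb3, at 6.54.

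The libraries of a group were not alike. Replicate 2 was the highest of the ft/ft-labelled libraries for 5 of the 10 genes (*Defb3*, *Defb4*, *Reg3g*, *Lcn2* and *Wfdc12*), at 29.1, 2.93 and 2.59 times the median of the other 3 for *Defb3*, *Reg3g* and *Lcn2*, and near the others for *Defb1* (0.976 times) and *Defb6* (1.11 times). In the same library *S100a8* and *S100a9*, antimicrobial proteins that keratinocytes make under stress and neutrophils store, were 20.1 and 20.9 times the median of the other 3. *Krt16*, a keratin of stressed epidermis, was 5.06 times that median. *Nfkbiz*, a nuclear co-factor of the IL-17 response, was 4.32 times it and *Zc3h12a*, a ribonuclease that degrades inflammatory transcripts, 4.93 times. These 5 genes were picked after their values were seen, and not all genes of their lists stood out there. Antimicrobial proteins outside the 10 genes summed to 2579 CPM in this library and 2162 to 2633 CPM in the other 3. Hyperproliferative keratinocyte markers summed to 3686 and 2843 to 3118 CPM, and transcriptional regulators of antimicrobial genes to 1762 and 1469 to 1576 CPM. *Krt17*, *Cebpb* and *Ang* lay inside the range of the other 3, whereas *Sprr1b* was at 32.1 CPM against 7.20 to 10.2 CPM. Markers of neutrophils summed to 267 CPM in this library and 161 to 172 CPM in the other 3. Of these sums, *Ltf*, also listed among antimicrobial proteins outside the 10 genes, made up 112 CPM and 36.3 to 42.9 CPM. With replicate 2 left out, the ratio of means was 95.1 for *Defb3*, 114 for *Reg3g* and 5.43 for *Lcn2*. Replicate 3 was the lowest of the libraries labelled ft/ftMyD88-/- for 6 of the 10 genes, at 0.0357 times the median of the other 3 for *Reg3g* but 0.723 times for *Defb3* and 1.42 times for *Defb6*.

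Other members of the same gene families were taken by symbol. Of 7 other beta-defensin genes tested, 1 was called higher and 1 lower. The shares of all genes tested to set beside this and the list counts that follow were 10.9% higher and 12.3% lower. *Defb52* had 36 counts over the libraries labelled ft/ftMyD88-/- and 1 over those labelled ft/ft, a ratio of 35.6 with an exact 95% counting interval of 6.00 to 1446 (edgeR, adjusted p = 0.00260). *Defb7* was lower, at 0.568 ± 0.244 against 1.55 ± 0.633 CPM (SD, n = 4, edgeR, adjusted p = 0.0154). Of 7 other *Wfdc* genes tested, 1 was called higher and 3 lower, and 3 were called higher without ft/ftMyD88-/- replicate 3. *Wfdc17* rose from 7.33 ± 0.590 to 21.6 ± 8.82 CPM (SD, n = 4, edgeR, log2 fold change 1.55, adjusted p = 0.00342), whereas *Wfdc21* and *Wfdc5* were lower by log2 fold changes of -1.20 and -0.60 (edgeR, adjusted p = 0.00849 and 0.00432). *Reg1*, the 1 other *Reg* gene, had 8 counts in all and was not tested.

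Antimicrobial proteins outside these 10 genes were more often called higher than lower, with 10 higher and 2 lower of 29 tested and a median log2 fold change of 0.98. *Ang*, an angiogenin-family ribonuclease, had a log2 fold change of 2.23 (edgeR, adjusted p = 1.40e-05), from 1.03 to 1.45 CPM in the ft/ft-labelled libraries to 5.43 to 6.67 CPM in those labelled ft/ftMyD88-/-. *Ccl28*, a mucosal chemokine with antimicrobial activity, and *Lyz2*, the lysozyme of phagocytes, rose by log2 fold changes of 1.71 and 0.98 (edgeR, adjusted p = 0.000227 and 0.000665). *Pglyrp2*, a peptidoglycan amidase, and *Pla2g2f*, a secreted phospholipase of the epidermis, were lower by -1.23 each (edgeR, adjusted p = 0.000612 and 0.000118).

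Ligands known to induce antimicrobial genes were called higher in 8 of 13 tested and lower in none, with a median log2 fold change of 1.34. DESeq2 and limma voom called 0 of them lower too, and 0 were lower at an unadjusted p under 0.05 (edgeR). *Il17a* was at 0 to 0.291 CPM in the ft/ft-labelled libraries and 1.19 to 3.11 CPM in those labelled ft/ftMyD88-/- (edgeR, log2 fold change 4.27, adjusted p = 0.000537). For *Il17f* the levels were 0 to 0.691 and 2.11 to 5.37 CPM (edgeR, log2 fold change 4.08, adjusted p = 0.00834). The epithelial cytokine *Il17c* (1.90), *Osm* of the IL-6 family (2.44) and the EGF receptor ligand *Areg* (1.34) were called higher too, with these log2 fold changes. Without ft/ft replicate 1 or 3, or ft/ftMyD88-/- replicate 2 or 4, the number called higher was 5. In the library labelled ft/ft that held most *Defb3* and *Lcn2*, replicate 2, *Il17a*, *Il17f* and *Osm* were also the highest of its group, at 0.291, 0.691 and 0.655 CPM. Of the other ligands named, *Il17c* was highest there too, at 0.255 CPM, but *Areg* was not (3.64 CPM, and 3.99 CPM in ft/ft replicate 1).

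Of 15 receptors of these ligands tested, 4 were called higher and 3 lower, with a median log2 fold change of -0.13. The receptor chains *Il17re* (log2 fold change -0.66) and *Il17rc* (-0.38), which serve IL-17C and IL-17A or IL-17F, and *Il1rap* (-0.59) of the IL-1 receptor complex were called lower, *Il17rc* not with scaling by library size only. The 4 called higher were *Il1r1* (0.43), *Osmr* (0.47), *Il4ra* (0.99) and the IL-17 receptor chain *Il17ra* (0.36, edgeR, adjusted p = 0.0373). The number called higher fell to 1 without ft/ft replicate 1, 3 or 4 and to 2 without ft/ft replicate 2 or ft/ftMyD88-/- replicate 1 or 2. Of 14 transcriptional regulators of antimicrobial genes, 3 were called higher and 2 lower. *Cebpb*, a C/EBP factor, and *Hif1a*, the hypoxia factor, had log2 fold changes of 0.48 and 0.45 (edgeR, adjusted p = 0.00447 and 0.00339). *Rela*, an NF-kB subunit, was lower by -0.32 (edgeR, adjusted p = 0.0122), a call not made with scaling by library size only. The number called higher was 5 without ft/ft replicate 2, and the number called lower was 1 without ft/ft replicate 1 or ft/ftMyD88-/- replicate 1 or 4.

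Genes that process or sense these peptides were called higher in 5 and lower in 4 of 14 tested, with a median log2 fold change of 0.42. *Klk5*, a kallikrein protease that cleaves cathelicidin, and *Spink5*, an inhibitor of kallikreins, were lower by -0.83 and -0.82 (edgeR, adjusted p = 0.00116 and 0.000572). The kallikreins *Klk7* and *Klk6* were called higher, by 0.47 and 1.26 (edgeR, adjusted p = 0.0163 and 0.0431). *Ccr2*, a chemokine receptor that beta-defensins can engage, was higher by 0.74 (edgeR, adjusted p = 0.00525). The number called higher was 1 to 3 without ft/ft replicate 1, 3 or 4 or ft/ftMyD88-/- replicate 2 or 4. The number called lower was 2 without ft/ft replicate 1 or 4 or ft/ftMyD88-/- replicate 2, 3 or 4.

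**Figure D4:**
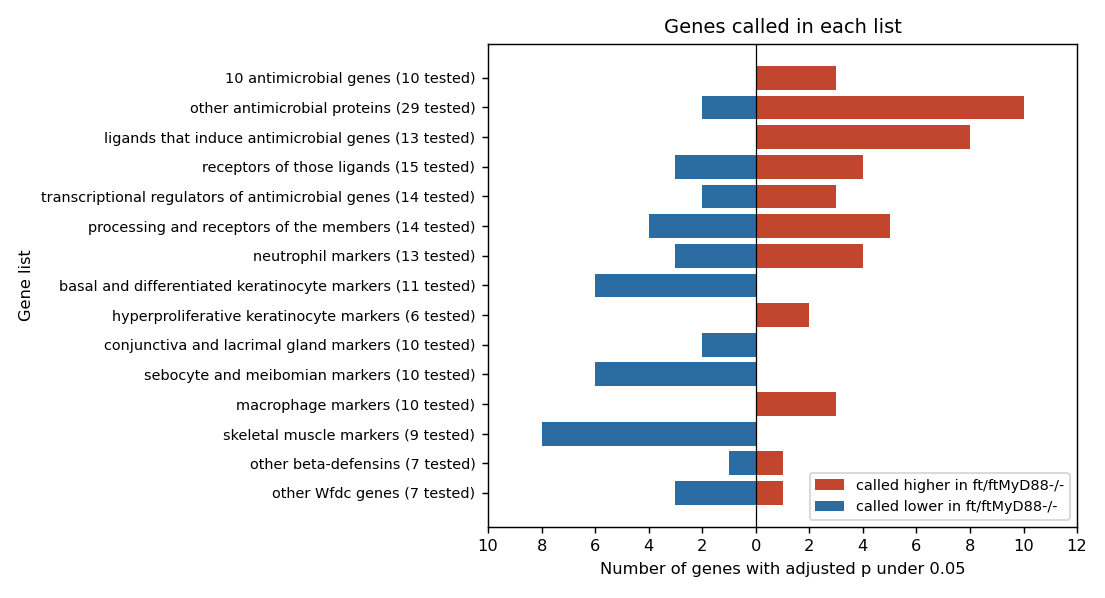
Number of genes called higher (red, to the right) or lower (blue, to the left) in ft/ftMyD88-/- for each gene list, with the number tested in brackets. The 10 antimicrobial genes have 3 called higher and none lower, ligands have 8 of 13 higher, and 8 of 9 skeletal muscle markers are lower.

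Markers of other cells moved between the groups as well, and their part in the antimicrobial values was not tested. Of 14 neutrophil markers in the table, 13 were tested. Of these, 4 were called higher and 3 lower, and their summed level was 161 to 267 CPM in the ft/ft-labelled libraries and 150 to 503 CPM in those labelled ft/ftMyD88-/-. *Ltf*, not called itself, made up 36.3 to 112 CPM and 34.7 to 363 CPM of these sums. *Ngp*, a granule protein of maturing neutrophils, had 6 counts over all 8 libraries and was not tested, and *Elane*, neutrophil elastase, was at 0.183 CPM or less. The decoy receptor *Il1r2* and the granule enzyme *Mpo* were lower by log2 fold changes of -0.82 and -2.80 (edgeR, adjusted p = 0.000224 and 0.0195), *Mpo* not without ft/ftMyD88-/- replicate 2 or 4 (adjusted p = 0.0535 and 0.0576, edgeR). *Padi4*, which citrullinates histones in neutrophils, was higher by 1.00 (edgeR, adjusted p = 0.00261). *Trem1* and *Ctsg* were called higher too, by 3.72 and 2.20 (edgeR, adjusted p = 0.0260 and 0.0174), *Ctsg* at 0.570 CPM or less. The number of neutrophil markers called higher was 2 without ft/ft replicate 3 or 4 or ft/ftMyD88-/- replicate 4, and the number called lower was 1 without ft/ftMyD88-/- replicate 2 or 4. Hyperproliferative keratinocyte markers summed to 2843 to 3686 CPM and 3379 to 5736 CPM, with 2 of 6 called higher, and 0 or 1 when ft/ft replicate 1, 3 or 4 or ft/ftMyD88-/- replicate 1, 2 or 4 was left out. *Sprr1b*, a cornified envelope protein of stressed epidermis, was at 7.20 to 32.1 CPM and 75.7 to 223 CPM (edgeR, log2 fold change 3.19, adjusted p = 0.0174, and 0.0552 without ft/ft replicate 4).

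Basal and differentiated keratinocyte markers were called lower in 6 of 11, among them *Lor* (loricrin, log2 fold change -1.51) and *Krt15* (-1.36), and none was called higher (edgeR, 1 at an unadjusted p under 0.05, 1 with DESeq2 and 0 with limma voom). Without ft/ft replicate 2, 1 was called higher. Sebocyte and meibomian markers, summed over 10 genes, were at 20738 to 23299 CPM in the ft/ft-labelled libraries and 12590 to 18515 CPM in those labelled ft/ftMyD88-/-, with 6 called lower. Macrophage markers were at 430 to 623 CPM and 581 to 786 CPM with 3 of 10 called higher, and 1 was called lower without ft/ft replicate 1. Of 10 conjunctiva and lacrimal gland markers, 2 were called lower and none higher (edgeR, 1 higher at an unadjusted p under 0.05, 0 with DESeq2 and 1 with limma voom), at 1520 to 2979 CPM and 1131 to 2108 CPM. Without ft/ft replicate 2, in which their sum was highest, 3 were called higher and 1 lower, and 1 was called lower also without ft/ft replicate 1 or 3 or ft/ftMyD88-/- replicate 1, 3 or 4.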

How the data were processed

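Periocular skin of 4 ft/ft and 4 ft/ftMyD88-/- mice was measured by RNA-seq. The authors deposited raw counts per gene that were not normalized. Per the methods, alignment to GRCm38.p6 used HISAT and tophat2, and HTSeq is named with default parameters for the step that set the groups against each other. The counting tool is not otherwise given in the sources used here. Labels name total RNA, a fixed-tissue protocol and Cell Ranger, whereas the methods describe snap-frozen skin and polyA-selected libraries. Annotation release and tool versions were not given in the sources used here, and neither was strand, so reads of overlapping genes on opposite strands cannot be told apart.

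The test was that of edgeR 4.0.16 under R 4.3.3 (TMM, glmQLFit with robust = TRUE, glmQLFTest), two-sided, without covariates. The count minimum was 10 summed over libraries, and Benjamini-Hochberg adjustment ran over all genes tested at 0.05. CPM used TMM-scaled library sizes. Standard errors were the absolute log2 fold change over the square root of F. The alternatives were DESeq2 1.42.0, limma 3.58.1 (voom), RLE normalization, library size only, filterByExpr, no filter, leaving out each library, the replicate number as a block and stricter thresholds.

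The 10 genes and all lists were chosen with earlier results of these data known. Besides them, at most 5 genes per list could be named, called genes with the smallest adjusted p first and then uncalled ones by mean CPM, with *Myd88*, *Flg*, *Xist* and *Ddx3y* as checks (*Flg* 103 ± 69.8 and 242 ± 39.5 CPM, SD, n = 4, adjusted p = 0.120 by edgeR). *Ngp*, *Elane*, *Ltf*, *Il17ra*, *Il4ra*, *Klk6*, *S100a8*, *S100a9*, *Krt16*, *Nfkbiz* and *Zc3h12a* were named outside this rule, the last 5 of them after their values were seen. Of the listed genes, 16 were not analysed here. Exonic lengths came from GENCODE annotation of GRCm38 and promoters from RefSeq, with a promoter found for 7 of the 10 genes. No protein sequences were used here. In all 12 replicate pairs the chi-square was 15.1 or more times its degrees of freedom, so none was counted as a duplicate. Each group is described as 4 mice, 1 per library.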

Additional observations from a re-analysis of the deposited data

Results flagged for a closer look

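Of 20 groups of 4 libraries checked (10 genes in 2 groups), 3 held a library whose gap to its nearest neighbour exceeded Dixon's 95% critical value as a share of the group's range, and chance flags about 1 in 20 groups. *Defb3* in ft/ft replicate 2 was at 13.0 CPM, with the other 3 libraries labelled ft/ft at 0.429 to 0.575 CPM. *Defb14* in ft/ft replicate 3 was at 2.01 CPM, with the others at 3.49 to 3.56 CPM. *Wfdc12* in ft/ft replicate 4 was at 0.0383 CPM, which is 1 count, with the others at 0.167 to 0.182 CPM.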

How the results depend on the processing

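Of the 10 genes, 3 were called higher with edgeR, 6 with DESeq2, 5 when counts were scaled by library size only, 1 at an adjusted p under 0.01, and 1 to 4 when a library was left out (1 without ft/ft replicate 3 or 4). The number of calls over all genes moved as well. DESeq2 called 2865 of all genes higher and 2777 lower. Without ft/ft replicate 3 or 4, edgeR called 1610 and 1464 of all genes higher, against 2239 with all libraries. None was called lower under any alternative, at an unadjusted p under 0.05 by edgeR, DESeq2 or limma voom, or by their adjusted p. Scaling by library size only moved the median log2 fold change of all genes by 0.18 and called 4638 genes higher and 1326 lower, against 2239 and 2525. There *Defb1* had a log2 fold change of 0.10 and a difference of mean CPM of 2.57 in place of -0.08 and -2.01, so relative to that shift it stayed below the median gene. *Defb4* was at -0.033 with limma voom and at -0.31 to 0.31 with a library left out. The median log2 fold change of the 10 genes lay between 0.64 (filterByExpr, which removed *Camp*) and 1.05 (library size only). Among the other listed genes, 41 were called higher, and 23 to 50 with a library left out (27, 25 and 23 without ft/ft replicate 1, 3 or 4), and 53 with DESeq2. The other listed genes called lower numbered 39, and with library size only 55 were called higher and 29 lower. DESeq2 called 16 other antimicrobial proteins, 5 regulators, 4 hyperproliferative markers and 2 other *Wfdc* genes higher, against 10, 3, 2 and 1. With library size only, 7 regulators, 4 hyperproliferative markers, 2 other *Wfdc* genes and 1 sebocyte marker were called higher, and 1 regulator, 2 processing genes and 1 conjunctiva marker lower. Under filterByExpr *Camp*, *Defb52* and *Il17c* were not tested. Over 43 of the named genes, 642 alternative fold changes were computed, of which 601 kept their direction and side of the threshold, 24 lost the call, 14 gained it and 3 turned in sign.

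The replicate numbers do not pair the libraries. Deviations of same-numbered libraries from their group means correlated at -0.258 to 0.0481 across genes, and 1 of 4 libraries labelled ft/ft correlated best with its own number. With the replicate number as a block, 3 of the 10 genes were called higher and 1895 and 2144 of all genes were called higher and lower. Of neutrophil markers 1 and of conjunctiva and lacrimal gland markers 5 were then called lower, against 3 and 2. *Lcn2* had an adjusted p of 0.0517 and *Defb14* one of 0.0432 (edgeR).

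With 4 libraries per group, each left-out fit rested on 3 libraries on one side. At 15802957 to 29255129 counts per library, *Camp* and, in the libraries labelled ft/ft, *Wfdc12* lay near the limit of 3 counts.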
